A study of Mus musculus with 17 samples.

Results

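The mRNAs of 9 genes of the dendrite and the postsynaptic density were followed across bulk mouse cortex, namely Ddn, the Shank family (Shank1, Shank2 and Shank3), Camk2a, Map2, Dlgap3, Nrgn and Psd. They were taken by symbol as mRNAs known to lie in dendrites, together with the whole Shank family, and all 9 of 9 were found among the 55453 genes of the table and passed the filter on low values that left 16265 genes. RNA had been sequenced from male C57BL/6J mice, which were hemizygous Hnrnph2 knockouts (KO, 3 mice at 8 weeks), hemizygous carriers of the R206W substitution (3 mice at 8 weeks) or hemizygous carriers of the P209L substitution (3 mice at 3 weeks). Each line had its own wild-type controls of the same age, with 3 KO controls, 3 R206W controls and 2 P209L controls. The KO line was made on the same strain by an insertion or deletion that leads to decay of the Hnrnph2 transcript, and both substitutions lie in the endogenous gene, so every cell of the cortex carries them. Hnrnph2, an X-linked RNA-binding protein gene, was at 23.1 ± 1.59 TPM (SD, n = 3) in KO mice and at 122 ± 35.7 TPM in their controls, at 146 ± 12.9 and 145 ± 4.57 TPM in R206W mice and controls, and at 92.5 ± 9.30 and 86.5 ± 6.97 TPM in P209L mice and controls.

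Most neuronal mRNAs stay in the cell body, but a set is packed into granules with RNA-binding proteins, carried along dendritic microtubules by kinesin motors and translated near synapses. The proteins made there include scaffolds of the postsynaptic density, the protein mesh under excitatory synapses that holds receptors and signalling enzymes in place. Shank proteins are the deep layer of that mesh and are tied to receptors through the SAPAP proteins (Dlgap genes), while dendrin is a dendritic and nuclear protein that binds synaptic scaffold proteins.

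Ddn and Shank1 were on a short list of genes that the study had picked from these same mice because their levels were above controls with either substitution and not with the knockout. Their levels in KO, R206W and P209L mice against controls, and the differences between those effects, are therefore a description with no test. The remaining 7 genes were tested in these comparisons, and all 9 in the comparisons of age and of the 2 groups of 8-week controls. The age comparison shares the P209L controls with the choice of Ddn and Shank1.

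The hnRNP H family binds runs of G in RNA, and such runs were counted on the sense strand of the principal transcript (the longest where there were several), with overlapping matches counted separately (GENCODE M21, GRCm38). Ddn held 36.8 GGG per kb of transcript (98.7th percentile of the coding genes tested), Dlgap3 34.7 (98.0th), Shank1 34.4 (97.8th), Shank3 31.8 (96.1st) and Psd 30 (94.4th), against a median of 16.4. Camk2a (23.7, 82.1st percentile), Nrgn (22.7, 78.7th) and Shank2 (19.4, 65.3rd) lay nearer to that median, and Map2 lay below it at 11.98 (23.8th percentile). In the coding sequence alone Nrgn held 55.6 GGG per kb (99.96th percentile), above Ddn at 38.5 (98.8th) and Shank1 at 34.5 (97.7th). By GGGA per kb of transcript, Ddn stood at the 91.2nd percentile, Shank1 at the 90.4th, Dlgap3 at the 86.2nd, Camk2a at the 85.4th and Shank3 at the 64.8th. The densest 30-base window of the coding sequence is shown for 6 of the genes, to set Ddn and Shank1 beside relatives that differ in their runs of G; capitals mark runs of at least 3 G.
Ddn, chr15:98806829-98806858, minus strand: cccaGGGGttgcatGGGcGGGGccatGGGG
Shank1, chr7:44327064-44327093, plus strand: GGGGGaactGGGGGctcaGGGGGccctGGG
Shank2, chr7:144410372-144410401, plus strand: tgaggctggtgctcaGGGGGaggctGGGGG
Shank3, chr15:89557885-89557914, plus strand: gcGGGtggaGGGGctGGGGGcGGGcgtGGG
Dlgap3, chr4:127194837-127194866, plus strand: GGGaggcccaGGGGGGGtGGGGGctGGGGG
Map2, chr1:66380602-66380631, plus strand: atgaaggaccaGGGtGGGGcaGGGGaaGGG
The Dlgap3 window held 12 overlapping GGG, the Shank1 window 10, the Shank3 window 8, the Ddn window 7 and those of Shank2 and Map2 6 each. The Nrgn window, not shown, held 7. A run of G is a feature of the letters and was not examined as a binding site. GC content was 63.9% in the Dlgap3 transcript, 61.7% in Shank3, 61.4% in Shank1, 61.2% in Psd and 59.9% in Ddn, with a median of 50.5% over the coding genes tested.

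TPM, the unit of the deposited table, divides by transcript length, so levels can be set side by side between genes. In the 6 wild-type mice of 8 weeks, Camk2a, which encodes the α subunit of the calcium/calmodulin-dependent kinase that drives synaptic plasticity, was the most abundant of the 9 at 1368 ± 208 TPM (SD, n = 6) and ranked 31st of the 16265 genes. Nrgn, for the calmodulin-binding protein neurogranin, was at 1347 ± 262 TPM, and the ranges of these 2 genes overlapped. Map2, which encodes the microtubule-associated protein that marks dendrites, was at 558 ± 69.8 TPM and overlapped with Ddn at 507 ± 16.5 TPM. Psd, an exchange factor for the small GTPase Arf6, followed at 418 ± 14.6 TPM, apart from Ddn and from Shank1. Shank1 (178 ± 25.0 TPM) and Dlgap3 (164 ± 20.1 TPM), the latter for the scaffold SAPAP3, overlapped with each other, as did Shank3 (105 ± 13.2 TPM) and Shank2 (72.7 ± 11.7 TPM). KO control 1, a mouse that stood apart in composition (described with the KO line), set much of this spread. Without it (n = 5), Camk2a was at 1449 ± 69.5 TPM, Nrgn at 1445 ± 116, Map2 at 585 ± 26.2, Ddn at 506 ± 18.2 and Dlgap3 at 172 ± 6.24 TPM, and the ranges of Map2 and Ddn and those of Shank3 and Shank2 no longer overlapped. The 10 markers of excitatory neurons were all detected, with Slc17a7, the vesicular glutamate transporter of cortical neurons, at 495 to 912 TPM over the 17 mice. Of the 6 hippocampal markers, Dsp and Lct were below 1 TPM in every mouse, while Wfs1 (12.4 to 42.1 TPM), Calb2 (5.62 to 16.6), Fibcd1 (1.83 to 8.38) and Prox1 (1.4 to 3.37) were detected.

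**Figure D1:**
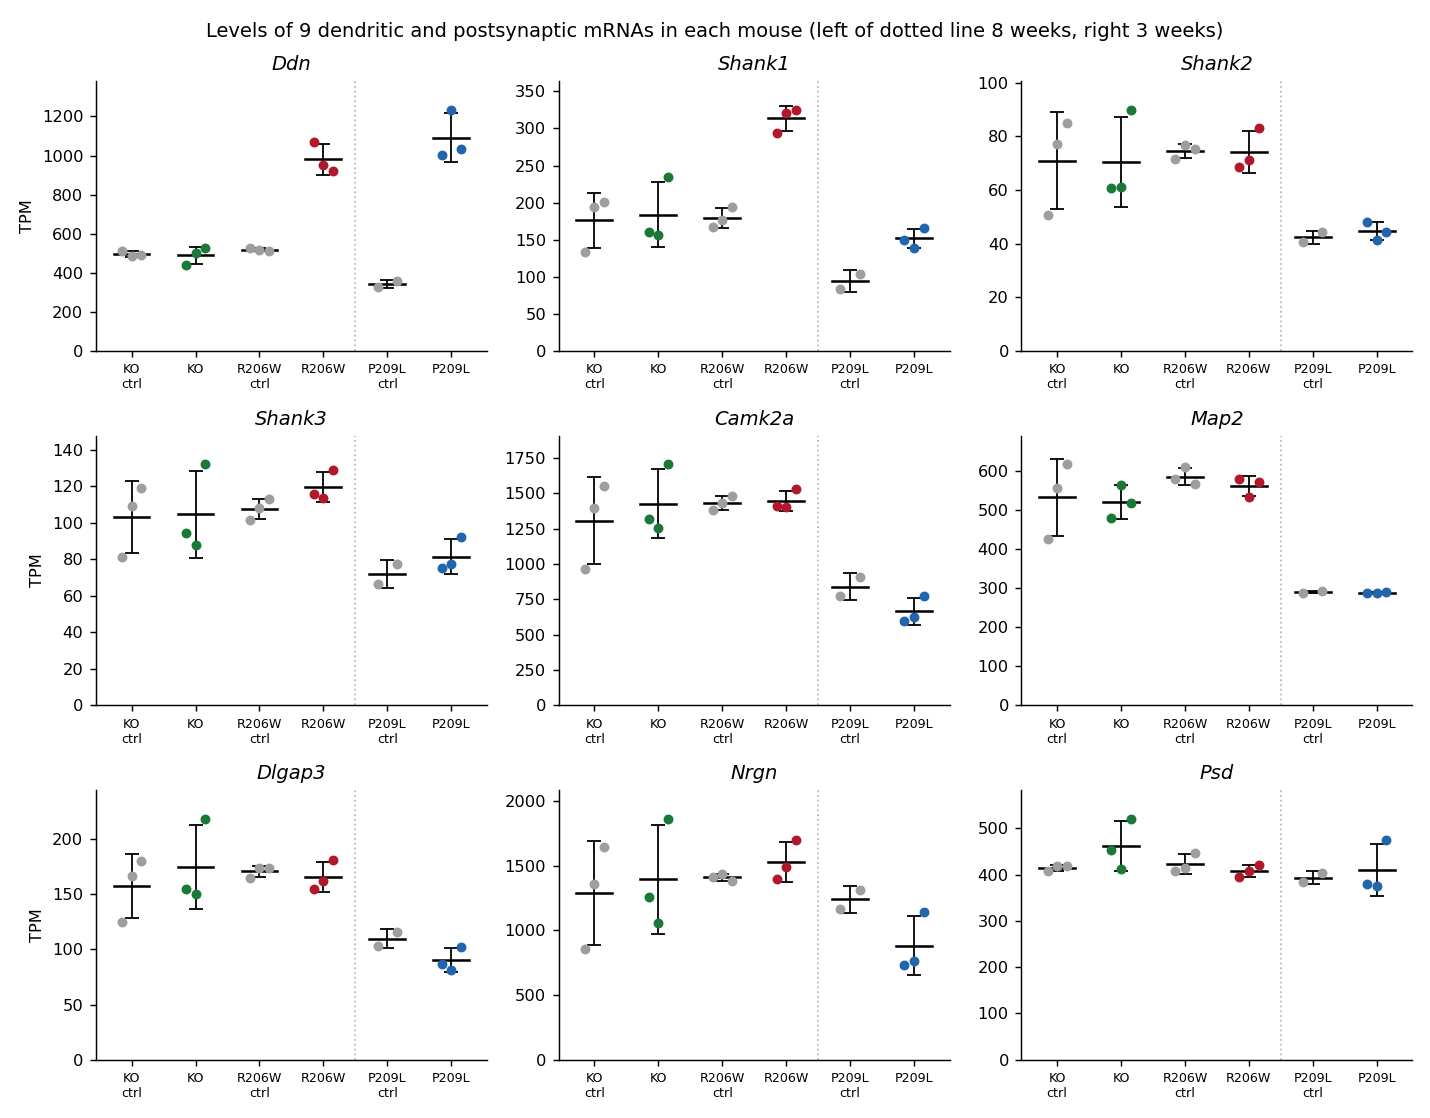
TPM of each gene (vertical axis, from 0) in each of the 17 mice (points), by group (horizontal axis), with the group mean (line) and SD (bar); groups left of the dotted line were 8 weeks old and those right of it 3 weeks old. Ddn lay at 919.7 to 1071 TPM in R206W mice and 1001 to 1234 TPM in P209L mice against no more than 527 TPM in all other mice, Shank1 lay above its own controls in the same lines, and Map2 fell into an 8-week and a 3-week level.

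Ddn was at 512, 484 and 489 TPM in the KO controls and at 441, 501 and 524 TPM in KO mice. It was at 527, 518 and 509 TPM in the R206W controls and at 1071, 953 and 919.7 TPM in R206W mice. In the P209L line it was at 326 and 356 TPM in controls and at 1001, 1234 and 1036 TPM in mutants. The KO and control ranges overlapped, and every R206W mouse was above every control of the 8-week lines. Among all genes, 8.09% had every R206W mouse above its own controls. Every P209L mouse was above its own 2 controls, a pattern that 14.2% of all genes had in the P209L line. From neither pattern is anything read here. The difference in log2(TPM + 1) was -0.02 ± 0.10 (SE) in KO mice, 0.92 ± 0.10 in R206W mice (1.89-fold on this scale) and 1.67 ± 0.11 in P209L mice (3.18-fold), with no test for the reason given above. These differences stood at the 26.9th, 99.6th and 99.9th percentiles of all genes tested.

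The P209L difference of Ddn exceeded the R206W difference by 0.75 ± 0.15 (SE), a description of the same values. Over the 7 genes open to a test, the P209L difference minus that of R206W ran from -0.63 ± 0.35 for Nrgn to 0.10 ± 0.16 for Psd, and 0 of 7 passed by limma (background 0.0%, 0 of 16265 genes, with 647 at an unadjusted p under 0.05). The Ddn levels of the mutant groups overlapped (981 ± 79.5 TPM in R206W and 1090 ± 125 TPM in P209L mice), whereas the 3-week controls (341 ± 21.4 TPM) lay below the R206W controls (518 ± 8.85 TPM). Because each knockin line was sampled at its own age, allele and age cannot be told apart in this difference.

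Ddn lies on chromosome 15 (98803777 to 98809490, minus strand, GRCm38; ENSMUSG00000059213.7), and an antisense gene on the opposite strand, B130046B21Rik, overlaps it. That gene was listed at 0.598% to 1.26% of the mean Ddn level in the 6 groups. Its own mean was 12.2 TPM in R206W mice and 6.43 TPM in their controls, and 6.52 and 4.31 TPM in P209L mice and controls. In KO mice and controls it was 4.93 and 5.28 TPM. Whether strand was used in the quantification is not given in the sources used here, so reads of the pair may not be separable. Shank1 lies on chromosome 7 (44310253 to 44360572, plus strand; ENSMUSG00000038738.15), and the opposite-strand gene 1700008O03Rik that overlaps it was listed at 0.368% to 2.42% of its mean level.

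Shank1 was at 133, 194 and 201 TPM in the KO controls and at 161, 156 and 234 TPM in KO mice. In R206W mice it was at 294, 322 and 325 TPM, against 168, 177 and 194 TPM in their controls. In P209L mice it was at 149.8, 139 and 166 TPM, against 83.3 and 104 TPM in controls. Again the KO groups overlapped and both knockin groups lay wholly above their own controls. That pattern was seen in 8.09% of all genes in the R206W line and 14.2% in the P209L line, and nothing is read from it. The P209L mice, at 3 weeks, were below all 8-week wild-type mice but KO control 1, the lowest of these. The differences were 0.06 ± 0.17 in KO, 0.80 ± 0.17 in R206W (1.74-fold) and 0.69 ± 0.19 in P209L mice (1.62-fold) on the log2 scale, again without a test. The P209L difference of Shank1 minus that of R206W was -0.11 ± 0.25 (SE), and it turned positive (0.06) after the trend with transcript length and GC content was removed.

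The KO difference minus the R206W difference was -0.94 ± 0.14 for Ddn and -0.74 ± 0.24 for Shank1, as a description. Over the other 7 genes the same quantity ran from -0.13 ± 0.23 for Shank3 to 0.20 ± 0.15 for Psd, and 0 of 7 passed the adjusted threshold (background 0.0307% of all genes, 5 of 16265; 373 at an unadjusted p under 0.05).

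Shank2 and Shank3, the relatives of Shank1 in the same scaffold layer, were tested. In R206W mice Shank2 was at 68.4, 71.1 and 83.1 TPM, against 71.5, 76.7 and 75.1 TPM in controls. Shank3 was at 116, 114 and 129 TPM in R206W mice and at 102, 108 and 113 TPM in controls. The Shank2 groups overlapped, while the Shank3 groups did not, with every R206W mouse slightly above every control; of the 7 genes tested 1, Shank3, had this pattern, as had 8.09% of all genes. The log2 differences were -0.01 ± 0.18 for Shank2 (95% interval -0.38 to 0.36) and 0.15 ± 0.16 for Shank3 (-0.19 to 0.49), with adjusted p = 1.0 for each by limma.

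In P209L mice Shank2 was at 48.0, 41.3 and 44.5 TPM, against 40.7 and 44.15 TPM in controls. For Shank3 the P209L values were 74.9, 77.2 and 92.4 TPM and the control values 66.6 and 77.5 TPM. Both pairs of groups overlapped. The differences were 0.07 ± 0.20 for Shank2 (95% interval -0.35 to 0.49; adjusted p = 0.984) and 0.17 ± 0.18 for Shank3 (-0.20 to 0.55; adjusted p = 0.927, limma). In KO mice Shank2 differed by -0.00095 ± 0.18 and Shank3 by 0.02 ± 0.16.

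The share of each Shank in the summed Shank TPM of a mouse does not depend on the scaling of that mouse. Shank1 made up 50.3 ± 0.675% (SD, n = 3) of the sum in KO controls, 51.2 ± 0.182% in KO mice and 49.6 ± 1.01% in R206W controls, although the sum itself ran from 265 to 456 TPM in the KO line. In R206W mice its share was 61.8 ± 1.53% of a mean sum of 507 TPM, against 361 TPM in controls. In P209L mice its share was 54.6 ± 0.470%, against 44.9 ± 1.73% in the 2 controls. The Shank1 share was therefore higher than in the controls in every mouse of both knockin lines, with the Shank2 share at 14.6% and 16.1% and the Shank3 share at 23.6% and 29.3% in R206W and P209L mice. These shares contain Shank1 and are a description as well.

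**Figure D2:**
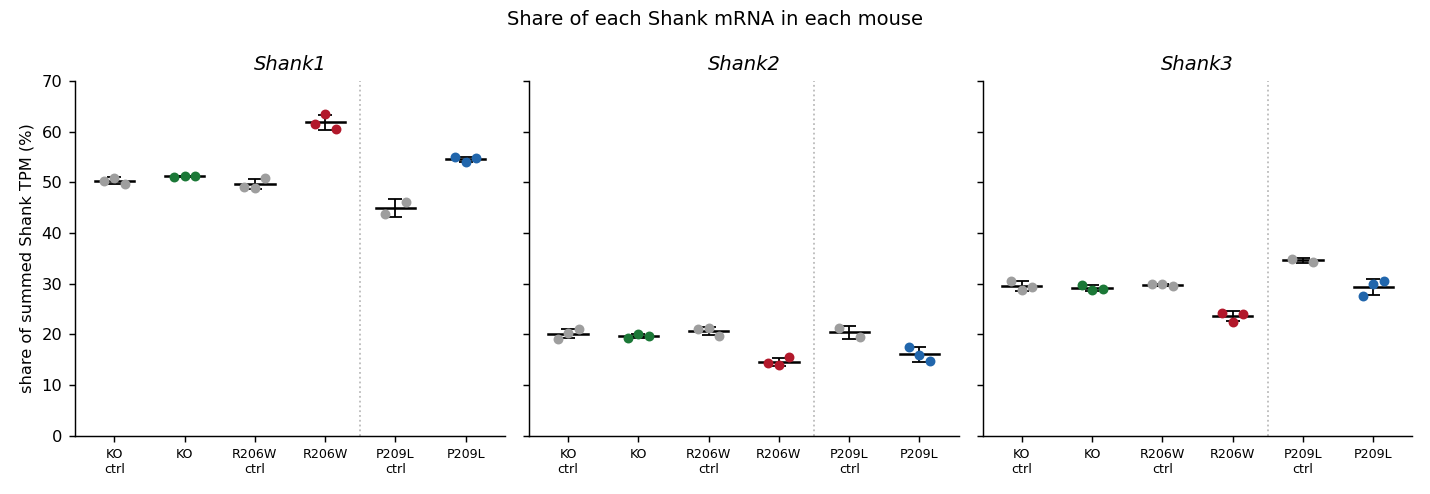
Share of Shank1, Shank2 and Shank3 in the summed Shank TPM (vertical axis, %, from 0) in each mouse (points), with group means (lines) and SDs (bars); the dotted line parts 8-week from 3-week groups. Shank1 lay at 60.5% to 63.5% in R206W mice and 54.1% to 54.9% in P209L mice, and between 43.7% and 51.3% in all other mice.

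Camk2a, Nrgn and Dlgap3 were the members with the lowest P209L differences. In P209L mice Camk2a was at 597, 623 and 776 TPM, against 774 and 905 TPM in controls. Nrgn was at 734, 765 and 1143 TPM in P209L mice and at 1166 and 1314 TPM in controls. Dlgap3 was at 86.9, 81.7 and 102 TPM, against 104 and 116 TPM. Nrgn and Dlgap3 were lower in every P209L mouse than in either control, as were 10.7% of all genes, and Camk2a overlapped by a narrow margin. The log2 differences were -0.34 ± 0.18 for Camk2a (95% interval -0.73 to 0.04), -0.52 ± 0.26 for Nrgn (-1.07 to 0.03) and -0.28 ± 0.17 for Dlgap3 (-0.65 to 0.09). None passed, with unadjusted p-values of 0.0791, 0.0612 and 0.123 and adjusted p-values of 0.738, 0.700 and 0.805 (limma). P209L 3 was the highest P209L mouse for each of these genes, and without it the values were -0.46, -0.72 and -0.37.

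In R206W mice the same genes stayed near their controls, at 0.01 ± 0.16 for Camk2a, 0.11 ± 0.23 for Nrgn and -0.04 ± 0.15 for Dlgap3. Map2, the dendritic microtubule protein, was at 288, 287 and 289 TPM in P209L mice and at 287 and 292 TPM in controls, the smallest difference of the 9 genes in this line. Its differences were -0.01 ± 0.13 in P209L, -0.06 ± 0.12 in R206W and -0.02 ± 0.12 in KO mice. Psd was at 379.8, 376 and 476 TPM in P209L mice and 384 and 403 TPM in controls, at 0.05 ± 0.12. Its R206W difference was -0.05 ± 0.11 and its KO difference 0.15 ± 0.11.

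Of the 7 genes tested, 0 passed in KO, 0 in R206W and 0 in P209L mice by limma. The share of all genes that passed was 0.00615% in KO (1 gene, with 663 at an unadjusted p under 0.05), 0.0369% in R206W (6 genes, with 357) and 0.0984% in P209L mice (16 genes, with 1213). The shared spread makes the R206W test less sensitive. Fitted on the R206W mice and their controls alone, 1560 genes had an unadjusted p under 0.05 and 10 passed, with 0 of the 7 among them. The median of the 7 was 0.12 in KO, -0.01 in R206W and -0.01 in P209L mice, against 0.06, 0.01 and 0.02 over all genes.

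**Figure D3:**
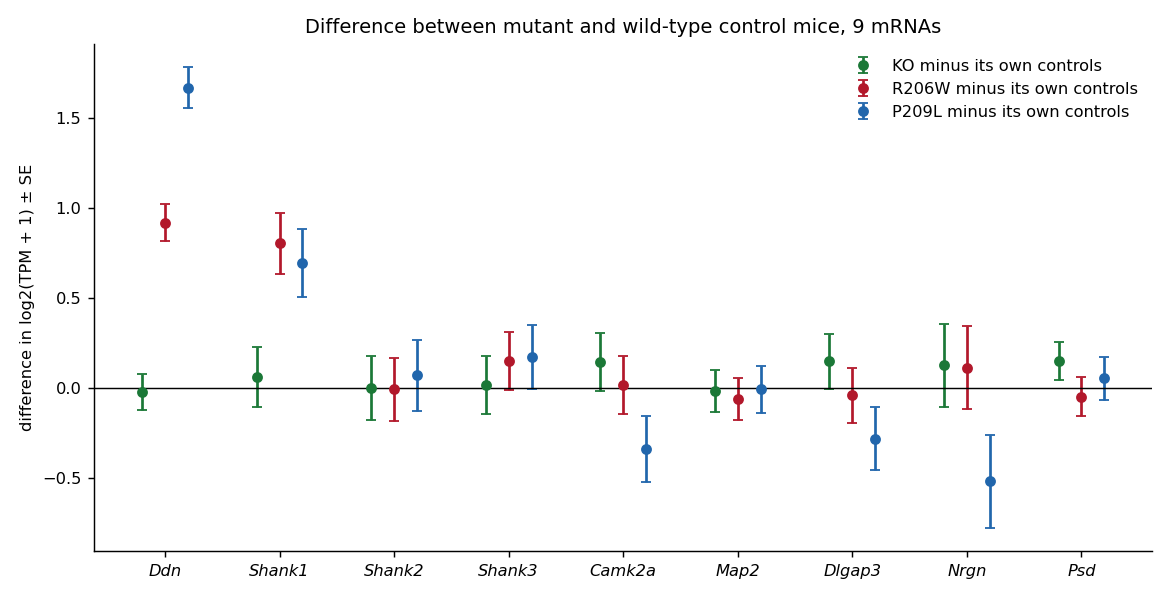
Difference in log2(TPM + 1) between each mutant group and its own wild-type controls (vertical axis) for the 9 genes (horizontal axis); points are limma estimates and bars their SE. Ddn and Shank1 stand at 0.69 to 1.67 in the knockin lines and near 0 in KO mice, and the other 7 genes lie between -0.52 and 0.17.

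The KO line needs care, since KO control 1 stood apart, with 20.1% of TPM in mitochondrial genes against 10.7% to 15.4% in the other 16 mice. It was the lowest of the 6 mice of its line for 8 of the 9 genes, the exception being Ddn, and for 65.5% of all genes. KO 3 was the highest for 8 of 9, all but Map2, and for 30.4% of all genes. No member had groups that did not overlap in this line, where 5.43% of all genes did so with KO higher and 0.824% with KO lower. Weighting mice by how well they matched their groups gave KO control 1 a weight of 0.0819. Shank2 then passed in KO mice (-0.32, adjusted p = 0.0256, limma), as did 2138 genes of the whole table. Shank3, Camk2a, Dlgap3 and Nrgn turned from above to below 0, as did Shank1, described without a test (from 0.06 to -0.24). Without KO control 1 and unweighted, 0 of 7 passed. Between the 2 groups of 8-week controls 0 of 9 passed by limma (R206W controls minus KO controls 0.03 to 0.18, with a median of 0.13 over all genes; background 0.0%, with 507 of 16265 at an unadjusted p under 0.05).

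Markers of other cells moved in some of these comparisons. All 7 oligodendrocyte markers were lower in P209L mice (median -0.87, 0 passing), with a summed level of 2462 to 3533 TPM against 4075 to 6083 TPM in controls, and all 5 blood markers were lower (median -0.68, 0 passing; summed level 1905 to 2837 against 2572 to 4884 TPM). The 10 excitatory neuron markers had a median of 0.05 there and summed to 755 to 964 TPM against 776 to 790 TPM. The precursor, leptomeningeal and endothelial markers were lower in P209L mice too (medians -0.44, -0.51 and -0.26, all below 0). In R206W mice all 10 excitatory markers were above 0 (median 0.13, 0 passing), at 1097 to 1309 TPM against 1004 to 1114 TPM. Less that median, Ddn stood at 0.78 and Shank1 at 0.67 in R206W mice. The 5 blood and 7 oligodendrocyte markers were all below 0 there (medians -0.48 and -0.13), and in KO mice the astrocyte (0.29), endothelial (0.32), leptomeningeal (0.35), blood (0.36), microglial (0.18) and oligodendrocyte (0.16) markers were all above 0, with 0 passing in either group. KO control 1 was the lowest of its line for 65.5% of all genes. Without it the median over all genes in KO mice moved from 0.06 to -0.06, and marker values without it are not reported here. In bulk tissue, fewer cells of a type and less RNA per cell cannot be told apart, and the part of cell composition in these differences was not tested.

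The genes whose profile was most like that of a member were found over the 17 mice, from log2(TPM + 1) centred on the mean of each line, among all genes tested. Those nearest to Ddn were Ppp1r9b (Pearson r = 0.980), which encodes the spine scaffold spinophilin, Phactr3 (0.978), a regulator of actin and protein phosphatase 1, and Ilrun (0.950). Nearest to Shank1 were Atxn7l3 (0.970), of the SAGA deubiquitinase module, Cacng7 (0.967), an AMPA receptor auxiliary subunit, and Ppfia3 (0.958), a liprin of the active zone. Ppp1r9b, Phactr3, Ilrun and Ppfia3 were on the same list as Ddn and Shank1, so their likeness repeats that choice.

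Atxn7l3 and Cacng7 were not on it. Atxn7l3 was at 183 ± 3.96 TPM in R206W mice and 146 ± 3.84 TPM in controls (0.32 ± 0.10), and Cacng7 at 168 ± 3.29 and 133 ± 3.22 TPM (0.33 ± 0.09). In P209L mice Atxn7l3 differed by 0.22 ± 0.12 and Cacng7 by 0.40 ± 0.10. Both genes were picked for their likeness to Shank1 over these same mice, so their differences repeat that choice and are a description with no test. For the other members the nearest genes were Baiap2 for Shank2 (0.976), Colgalt2 for Shank3 (0.975), Aplp1 for Camk2a (0.975), Slc39a6 for Map2 (0.924), Ckb for Dlgap3 (0.963), Camk2a for Nrgn (0.969) and Gpx1 for Psd (0.944). Baiap2, nearest to Shank2, encodes IRSp53, which binds Shank proteins. Ddn and Shank1 had an r of 0.792 with each other, whereas Ddn and Shank2 had an r of 0.06. All of these values share the same libraries, in which KO control 1 lies low for most members, and they are given without a test.

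Other mRNAs known from dendrites were read as a list of 22, chosen with results of these data in view. By limma, 1 of 22 passed in R206W and 1 of 22 in P209L mice, and 0 in KO mice, against 0.0369%, 0.0984% and 0.00615% of all genes. The medians were 0.05, -0.0006 and -0.03, against 0.01, 0.02 and 0.06 over all genes. The gene that passed was Ppp1r9b in both cases, which was on the study's list and is therefore no independent evidence; it was at 770 ± 22.2 TPM in R206W mice and 365 ± 25.0 TPM in controls (1.08), and at 630 ± 44.3 and 218 ± 20.6 TPM in P209L mice and controls (1.53). Partners and relatives of the members, 39 genes of which 38 were tested, held 0 genes that passed in any mutant group. Of 20 genes for the transport of RNA into dendrites (kinesins, granule proteins and translational regulators), 19 were tested and 0 passed. Both counts are to be read beside the same small shares of all genes.

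The effect of age was read in the controls. Wild-type cortex at 3 weeks, which are the P209L controls, was compared with the 6 wild-type mice of 8 weeks. Of the 9 genes, 7 were lower at 3 weeks and 0 higher, where 24.8% of all genes were lower and 11.3% higher (36.1% passing in all). The excess of lower genes depended on TPM scaling. With size factors 3677 genes were lower and 3503 higher, and with quantile normalization 3570 and 3662. Under each of these 7 of the 9 still passed. Ddn and Shank1 are among the 7, and their calls are not independent of the choice made with these controls. Without Ddn and Shank1, 5 of 7 genes were lower and 0 higher, with a median of -0.57. The median of the 9 was -0.57, against -0.12 over all genes, a shift to be read beside each value. Line and age cannot be told apart here, because all 3-week mice belong to the P209L line.

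Map2 had the largest difference of the 9, at 290 ± 3.66 TPM (SD, n = 2) against 558 ± 69.8 TPM (n = 6), or -0.93 ± 0.12 (SE; adjusted p = 6.71e-05, limma). Shank1 followed at 93.7 ± 14.8 against 178 ± 25.0 TPM (-0.91 ± 0.17, adjusted p = 0.000926), and Shank2 at 42.4 ± 2.45 against 72.7 ± 11.7 TPM (-0.75 ± 0.18, adjusted p = 0.00440). Camk2a was at 840 ± 92.8 against 1368 ± 208 TPM (-0.69 ± 0.16, adjusted p = 0.00439). For each of these genes both 3-week mice were below all 6 older mice. Ddn was at 341 ± 21.4 against 507 ± 16.5 TPM (-0.57 ± 0.10, adjusted p = 0.000735), Dlgap3 at 110 ± 8.75 against 164 ± 20.1 TPM (-0.57 ± 0.15, adjusted p = 0.0103) and Shank3 at 72.0 ± 7.67 against 105 ± 13.2 TPM (-0.54 ± 0.16, adjusted p = 0.0167).

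The calmodulin-binding Nrgn and the Arf6 activator Psd did not pass. Nrgn was at 1240 ± 105 against 1347 ± 262 TPM (-0.09 ± 0.23, 95% interval -0.58 to 0.40; adjusted p = 0.777), and its 3-week mice were above KO control 1 and below the other 5 older mice. Psd was at 393 ± 13.2 against 418 ± 14.6 TPM (-0.09 ± 0.11, -0.32 to 0.14; adjusted p = 0.544, limma), with both 3-week mice just below the older ones. In all, 8 of the 9 genes had both 3-week mice below all 6 older mice, as had 21.5% of all genes; without KO control 1 it was 9 of 9, and 45.9% of all genes. With size factors in place of TPM scaling, Nrgn and Psd turned to 0.05 each.

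**Figure D4:**
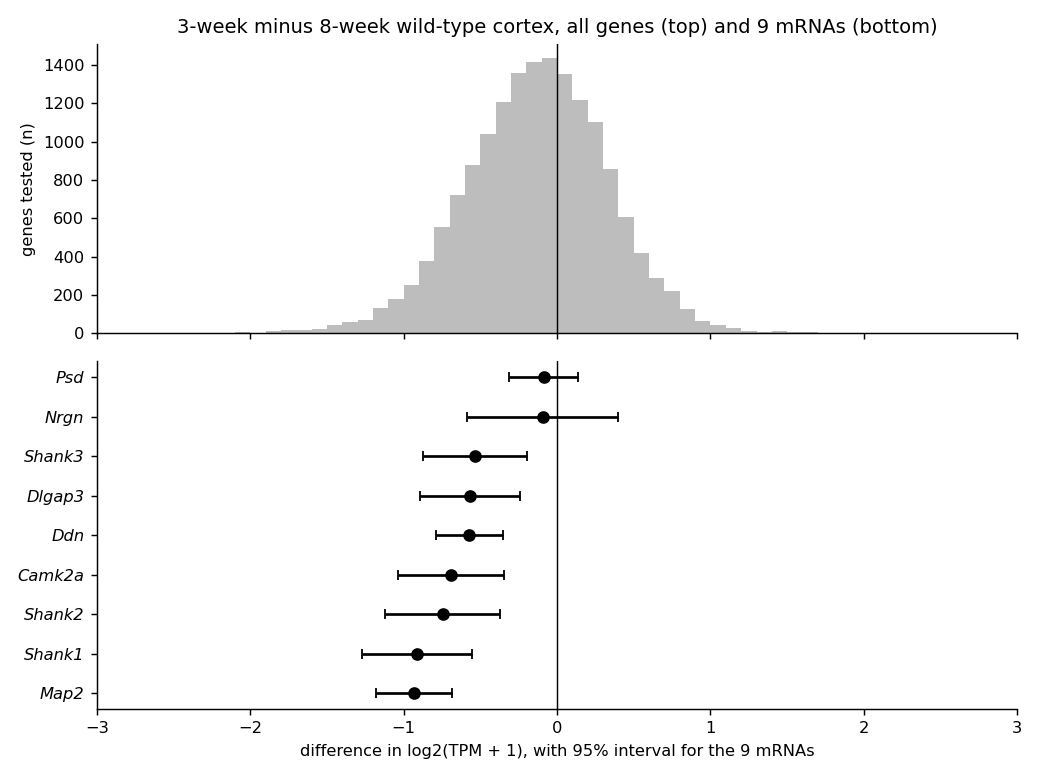
Difference in log2(TPM + 1) between 3-week and 8-week wild-type cortex (horizontal axis): the upper panel counts all genes tested per bin of 0.1, and the lower panel shows the 9 genes as limma estimates with 95% intervals. The intervals of 7 genes lie wholly below 0, from Map2 at -0.93 to Shank3 at -0.54, while those of Nrgn and Psd (each -0.09) span it.

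The age result rested on few young mice. Without P209L control 1, the lower of the pair for all 9 genes, 3 of 9 genes passed, namely Ddn, Shank1 and Map2, and 18.4% of all genes did. Shank3 was also lost without P209L control 2 (adjusted p = 0.0538), and Ddn was lost once the trend with length and GC content was removed (-0.43, adjusted p = 0.0622). The excitatory neuron markers were lower at 3 weeks as well, all 10 below 0 with 4 passing (median -0.35), and the oligodendrocyte and blood markers were higher (medians 0.72 and 1.48). Less the excitatory median, the 7 genes stood at -0.58 to -0.18 and Nrgn and Psd at 0.26 each.

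The shares of the Shanks were also compared between ages, and none passed. Shank1 made up 44.9% of the summed Shank TPM in the 2 young mice and 49.96% in the 6 older ones, a difference of -5.04 percentage points, and Shank3 34.6% against 29.7%, a difference of 4.97 points. Each had a two-sided exact permutation p of 0.0714, the smallest that 2 mice against 6 allow, and 0.107 after adjustment over the 3 Shanks. Shank2 differed by 0.075 points (exact permutation p = 0.857).

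The related lists were counted in the same comparison. Of the 22 other dendritic mRNAs 14 were lower and 0 higher (median -0.52). The smallest p-values belonged to Itpr1, the inositol trisphosphate receptor of the endoplasmic reticulum, at 40.6 ± 3.40 against 205.8 ± 41.3 TPM (-2.28), and Adcy1, a calmodulin-sensitive adenylyl cyclase, at 90.5 ± 2.62 against 234 ± 36.4 TPM (-1.35), and then to Ppp1r9b (-0.76) and Cnksr2 (-1.02), a postsynaptic scaffold for Ras signalling. Of the 38 partners and relatives 24 were lower and 1, Cyth1, was higher (0.42). Those with the smallest p were Homer2 (-0.77), whose protein binds Shank, Psd3 (-0.97), a paralog of Psd, and the microtubule-associated Map1b (-1.61) and Map4 (-0.81). Cyth1, an Arf exchange factor, was named after its value was seen.

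By role, the 3 Dlgap paralogs of Dlgap3 were all lower at 3 weeks (median -1.01), as were the 4 other microtubule-associated proteins (median -1.10), 5 of 6 dendrin partners (median -0.62) and 7 of 12 Shank partners (median -0.52). Of the 7 genes for calmodulin kinase II subunits and calmodulin, 2 were lower (median -0.27), and of the 6 tested relatives of Psd, Arf6 included, 3 were lower and Cyth1 was higher (median -0.45). Of the 19 dendritic RNA transport genes 16 were lower and 0 higher (median -0.65). They included the kinesin heavy chains Kif5b, at 48.2 ± 5.87 against 133 ± 15.7 TPM (-1.45), and Kif5c, at 259 ± 2.43 against 440.4 ± 14.3 TPM (-0.76), the translational regulator Cpeb3 (-1.83) and the granule protein Syncrip (-0.996). The lists share their control mice with the members, and each share is to be read against the 24.8% of all genes that were lower. The lists were counted under TPM scaling only, where lower genes outnumbered higher ones.

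RefSeq promoters (GRCm38.p6, 250 bases before to 50 after the start) were at hand for Shank3, Map2, Dlgap3, Nrgn and Psd. Map2, with the largest age difference, and Nrgn, which did not pass, are shown; capitals mark GGGCGG on either strand, the GC box of Sp and KLF factors.
Map2, chr1:66175079-66175378, plus strand: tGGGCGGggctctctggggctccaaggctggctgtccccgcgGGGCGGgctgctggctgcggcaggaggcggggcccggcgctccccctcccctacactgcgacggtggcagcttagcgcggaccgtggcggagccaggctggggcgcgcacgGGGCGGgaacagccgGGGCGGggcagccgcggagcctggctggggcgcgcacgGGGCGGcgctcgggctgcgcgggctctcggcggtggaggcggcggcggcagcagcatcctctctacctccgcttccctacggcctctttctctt
Nrgn, chr9:37552696-37552995, minus strand: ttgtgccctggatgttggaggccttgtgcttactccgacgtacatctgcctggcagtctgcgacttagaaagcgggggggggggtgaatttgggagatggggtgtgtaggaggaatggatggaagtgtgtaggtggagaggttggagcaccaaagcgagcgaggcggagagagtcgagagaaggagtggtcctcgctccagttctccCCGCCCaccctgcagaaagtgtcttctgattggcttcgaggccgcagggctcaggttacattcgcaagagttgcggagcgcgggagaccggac
Map2 held 5 GGGCGG and 37 CpG, Shank3 4 and 40, and Nrgn 1 and 17, while Dlgap3 and both Psd promoters held no GGGCGG; 35.9% of 32544 promoters held at least 1. None of the promoters held the cAMP response element TGACGTCA (1.80% of promoters), the E-box CACGTG (7.17%) or TATAAA (13.6%). The Dlgap3 promoter (chr4:127172630-127172929) lies inside the GENCODE gene, which begins at 127169204, so the promoter of its outermost start was not examined. Dlgap3 passed in the age comparison with no GC box in that stretch and Shank3 and Map2 passed with 4 and 5. Nothing was drawn from these letters about the factors.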

How the data were processed

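RNA was measured in the cortex of 17 male mice, with a TruSeq stranded total RNA kit per the labels. The values deposited by the authors are TPM per gene symbol; the submitters' processing notes name Trim Galore, STAR 2.7.1a, GATK 4.0.4.0, RSEM and the build mm10, without role or order. TPM makes each gene a share of its sample and keeps no depth, so the depth per sample is unknown and no counting error is given. Each column summed to 1000000 TPM within rounding. Repeated symbols (120 of 55573 rows) were summed, and genes with a mean of at least 1 TPM were tested as log2(TPM + 1), which understates changes of low genes. limma 3.58.1 in R 4.3.3 (lmFit, eBayes with trend=TRUE, two-sided) was fitted with a mean per group over all mice, with Benjamini-Hochberg adjustment over all genes at 0.05. The code was run on simulated data with independent noise, equally wide in every mouse. That run cannot show whether these mice meet the model. The samples of a group were taken as separate mice from their numbers; where that does not hold, p-values measure only the spread between these samples, which may be technical. Shank shares were compared with an exact permutation test.

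The members, gene lists and cell type markers were chosen with earlier results of these data known. The genes named were the 9 members, list genes past the threshold in a mutant comparison, up to 4 per list with the smallest p between ages, the genes with the highest Pearson r with a member (3 for Ddn and Shank1, 1 for each other) and Hnrnph2. Coordinates, transcripts and overlapping genes came from GENCODE M21 (GRCm38), promoters from RefSeq. The promoters of Ddn, Shank1, Shank2 and Camk2a and the protein sequences were not used here. Alternatives were other pseudocounts, filters and scalings, removal of mitochondrial genes, own-group fits, a replicate block, robust and weighted fits, removal of a length and GC trend, subtraction of the excitatory marker median and leaving out each mouse.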

Additional observations from a re-analysis of the deposited data

How the results depend on the processing

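No call of the 7 tested members changed in the R206W and P209L comparisons under any alternative run. With sample weights, 1 of 7 members passed in KO mice (Shank2). In the P209L minus R206W effect the only member past the threshold with weights was Ddn. It was chosen on these groups and is described there without a test, so nothing is read from it. Between ages, leaving out each mouse gave 3 to 7 of 9 members, the lowest without P209L control 1, which leaves a lone young mouse assumed to vary like the other groups. The cause was not tested.

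Several values near 0 changed sign without passing. In KO mice Shank3 turned to -0.061 with size factors, -0.041 with quantile normalization, -0.22 with sample weights and -0.11 once a trend with length and GC content was taken out. Sample weights also turned Camk2a (-0.095), Dlgap3 (-0.095) and Nrgn (-0.17), and Nrgn reached -0.016 with quantile normalization and -0.00066 with the trend removed. Shank1, described without a test in KO mice, turned to -0.24 with sample weights, its lowest value. In R206W mice Camk2a turned to -0.012 with weights and -0.046 with the trend removed. Between ages, size factors turned Nrgn to 0.047 and Psd to 0.053, and removal of the trend turned Psd to 0.066. The P209L minus R206W effect of Shank1 turned to 0.063 with the trend removed. The Shank2 share difference turned to -0.909 points over all mice of each age and to -0.433 points as a share of summed log2 values.

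Leaving out each mouse gave, in KO mice, -0.22 to 0.14 for Shank2, -0.16 to 0.13 for Shank3, -0.061 to 0.28 for Camk2a, -0.17 to 0.096 for Map2, -0.025 to 0.25 for Dlgap3 and -0.14 to 0.33 for Nrgn. For Shank1 and Ddn, described without a test, it gave -0.13 to 0.17 and -0.075 to 0.050 in KO mice. In R206W mice it gave -0.092 to 0.047 for Shank2, -0.026 to 0.039 for Camk2a and -0.11 to 0.0061 for Dlgap3, and in P209L mice -0.021 to 0.0046 for Map2 and -0.057 to 0.11 for Psd. It gave -0.23 to 0.0075 for Nrgn between ages, -0.27 to 0.051 for Shank1 in the P209L minus R206W effect and -0.824 to 0.974 points for the Shank2 share.

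Deviations of same-numbered mice from their group means had an r of 0.12, -0.058 and 0.33 in the KO line. The values were -0.028, -0.030 and -0.11 in the R206W and 0.081 and 0.0028 in the P209L line. The 0.33, of KO control 3 and KO 3, was the highest of any pair in its line. Deviations within such small groups are bound to each other, so these values cannot decide whether the numbers pair the mice. A fit with the replicate number as a block in effect drops P209L 3, since no control shares its number. It gave 0 of the 7 tested members passing in KO, R206W and P209L mice and turned Psd in P209L mice to -0.057. The block could not be fitted between ages or between the 8-week controls.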
